A study of Mus musculus with 17 samples.

Results

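Phosphate, sodium and bicarbonate are recovered from the filtered urine mainly in the proximal tubule, and 10 genes of that work were followed here by name: Slc34a1, Slc34a3, Slc20a1, Slc20a2, Slc9a3, Slc9a3r1, Slc4a4, Pdzk1, Slc17a1 and Slc17a3. They are 10 of the 48795 genes in the count table, and the level of each was taken in every library. The table holds messenger RNA sequencing of mouse kidney cortex from 17 samples, labelled as separate mice: 5 WT, 5 GCERAd, 3 TRACK and 4 GCERAdT. The study asks what loss of ATF4, a transcription factor of the amino acid and stress response, does to proximal tubule transcripts, and the TRACK groups add a kidney cancer transgene.

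GCERAd (GCERAΔ) mice carry a floxed Atf4 gene on both alleles and a tamoxifen-dependent Cre recombinase driven by part of the Ggt1 promoter, which is active in proximal tubules, most of all in their last segment. Tamoxifen (20 mg/mL, 200 µL each time) was injected at 6 weeks of age on 2 days in a row, and mice of the study were fasted for 16 h and studied 1 month after the first injection. TRACK stands for a transgenic model of cancer of the kidney, in which, as background, an always active HIF1α is made in proximal tubules. GCERAdT is labelled as TRACK with the Atf4 deletion. Strain, age and treatment of the 7 TRACK and GCERAdT mice are not given in the sources used here. The study's methods name no strain for the other mice and do not say whether WT mice received tamoxifen. The Cre transgene, and tamoxifen if WT had none, thus cannot be told apart from the Atf4 deletion in GCERAd against WT. Since Cre is directed to proximal tubules and the cortex holds other cells, transcripts from the other cells remain in every sample.

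The proximal tubule works from both faces of its cells. On the luminal brush border, sodium-coupled carriers take up phosphate and the exchanger NHE3 trades luminal sodium for protons, while on the blood side a sodium-bicarbonate cotransporter returns bicarbonate. Scaffold proteins with PDZ domains hold the luminal carriers in the brush border, and parathyroid hormone and FGF23 act by pulling the phosphate carriers from it. Bulk cortex RNA does not tell fewer proximal tubule cells from less RNA per cell, and these cannot be told apart in any value given here.

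In the cortices of TRACK mice the main phosphate carriers and the ubiquitous ones moved in opposite directions: Slc34a1 was 2.87-fold and Slc34a3 2.32-fold lower than in WT, and Slc20a1 was 3.03-fold higher. In GCERAd cortices the largest changes were in the organic anion carriers next to each other on chromosome 13, with Slc17a3 3.42-fold and Slc17a1 1.83-fold higher than in WT, and Pdzk1 and Slc20a1 were called higher too. Of the 10 genes, 4 were called higher and 0 lower in GCERAd against WT, where 14.1% of all genes tested were higher and 13.5% lower. In TRACK against WT 4 were called higher and 3 lower, where 23% of all genes tested were higher and 22.6% lower. All 10 passed the minimum level in every comparison.

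Upstream sequences of 3 of these genes are shown. Slc34a1 and Slc20a1 had the largest fall and rise in TRACK, and Slc17a1, which rose in GCERAd and in TRACK, is the one gene of the 9 found with C/EBP-ATF letters, while its neighbour Slc17a3 holds none of the 4 motifs searched. They come from RefSeq (GRCm38.p6), which has windows for 9 of the 10 genes, and each gives the 250 bases before the start site, 5′ to 3′ on the plus strand. Slc34a1 is at chr13:55399398-55399647, Slc20a1 at chr2:129198523-129198772 and Slc17a1 at chr13:23868768-23869017. In GENCODE M21 the Slc34a1 and Slc17a1 stretches lie inside introns of their own genes, downstream of the earliest annotated start, and 9 bases of the Slc20a1 stretch are in its first exon. Capitals mark matches to HNF1 letters in Slc34a1, to hypoxia response letters in Slc20a1 and to C/EBP-ATF letters in Slc17a1.
Slc34a1: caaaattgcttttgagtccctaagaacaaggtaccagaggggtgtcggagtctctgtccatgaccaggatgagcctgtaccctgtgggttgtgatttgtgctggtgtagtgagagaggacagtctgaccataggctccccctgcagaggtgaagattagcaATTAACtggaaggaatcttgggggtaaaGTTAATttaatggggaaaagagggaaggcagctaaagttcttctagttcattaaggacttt
Slc20a1: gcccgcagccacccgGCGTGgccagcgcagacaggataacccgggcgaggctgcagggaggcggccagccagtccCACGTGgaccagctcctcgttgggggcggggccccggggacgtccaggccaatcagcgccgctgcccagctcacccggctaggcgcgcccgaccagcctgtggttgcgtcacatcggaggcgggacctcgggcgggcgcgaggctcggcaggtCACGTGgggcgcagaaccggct
Slc17a1: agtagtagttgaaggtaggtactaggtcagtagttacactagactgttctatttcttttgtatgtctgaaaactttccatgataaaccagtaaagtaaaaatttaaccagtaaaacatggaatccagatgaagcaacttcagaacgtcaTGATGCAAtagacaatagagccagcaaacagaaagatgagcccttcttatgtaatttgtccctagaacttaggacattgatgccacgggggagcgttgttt

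Both strands of the windows, with 50 bases after the start site added, were searched for 4 motifs. The letters GTTAAT, part of the recognition sequence of HNF1, a factor of proximal tubule identity, occur at positions -89 and -61 from the start site of Slc34a1 and in 7.1% of all 32851 windows. The hypoxia response letters ACGTG or GCGTG, which HIF binds, match 5 times in the first Slc20a1 window. Of these matches 4 are on both strands of the 2 separate CACGTG words that begin at -175 and -22, and overlap within each word. They also match in windows of Slc9a3, which holds a CACGTG word too, Slc9a3r1, Slc4a4 and Pdzk1, so in 5 of the 9 genes, among them genes that were lower or not called in TRACK. They occur in 43.8% of all windows. The C/EBP-ATF letters TGATGNAA, which ATF4 binds as a dimer, occur at -101 of Slc17a1 as TGATGCAA, and in 3.97% of all windows. The HNF4 letters CAAAGTCCA, in 0.475% of all windows, match Pdzk1 alone. A match is a description of letters and no factor's binding was measured.

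Some facts of the libraries touch every result. Totals on genes were 53688512 to 71364561 counts. All 10 proximal tubule markers were present in every library, the lowest at 39.4 CPM (counts scaled to a common library total by TMM over the 17 libraries). The 5 WT libraries had 147 to 422 CPM of Xist and 0 counts of Ddx3y, Eif2s3y and Uty, whereas the other 12 libraries had counts of these Y-linked genes and at most 6.06 CPM of Xist, so sex and group cannot be told apart in either comparison with WT. The libraries also fall into 8 with 0.0320 to 0.0380% of counts on processed pseudogenes (kind A) and 9 with 0.0574 to 0.0784% (kind B). All 3 TRACK libraries are of kind B, as are 1 of the 5 WT, 3 of the 5 GCERAd and 2 of the 4 GCERAdT libraries. Library kind and group thus go partly together in GCERAd against WT. GCERAd 4 and 5 stand apart from GCERAd 1 to 3, as described with the genes. WT 1 with WT 2, and GCERAd 2 with GCERAd 3, have alike traces of fat markers: Cfd was 15.4 and 15.1 CPM in GCERAd 2 and 3 and at most 0.124 CPM in the other GCERAd libraries. In the study's list of its 10 sequenced samples, 2 names recur with an added letter and another barcode. The samples in that list also fall into 2 sets by the bases obtained per sequenced fragment. Names are not linked there to the libraries used here. Whether the 2 pairs of libraries come from 1 animal each, and whether the 2 sets are the 2 library kinds, was not tested. The labels number the samples as mice, but their extraction protocol speaks of 3 to 4 mice in a cohort, fewer than the 5 libraries of WT or of GCERAd. An n of 5 may thus count an animal more than once, and the spread behind a p-value may in part be technical. With WT 1 and 2, and GCERAd 2 and 3, each summed, 2 of the 10 genes (Slc17a1 and Slc17a3) were called in GCERAd against WT and 6 in GCERAdT against GCERAd. Over all genes 2760 and 1735 were called in these fits.

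The targeted gene itself was only partly lower. Atf4 was at 79.6, 74.8, 81.5, 86.9 and 101 CPM in WT and at 72.9, 55.8, 57.4, 61.8 and 75.2 CPM in GCERAd. The groups overlapped, and the fitted level was 1.30-fold lower in GCERAd (log2 fold change −0.38, SE 0.11, adjusted p = 0.0218 from the quasi-likelihood test of edgeR, adjusted by Benjamini-Hochberg over all genes tested, as for every adjusted p below). TRACK had 93.4, 79.9 and 77.6 CPM and the libraries labelled GCERAdT had 80.4, 94.1, 94.8 and 104 CPM, which is not lower (log2 fold change 0.17, SE 0.11, adjusted p = 0.367). The counts go against that label, so directions drawn from these libraries are given for the libraries labelled GCERAdT. Which exons the floxed allele removes was not checked, and reads on the exons that remain would still be counted.

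**Figure D1:**
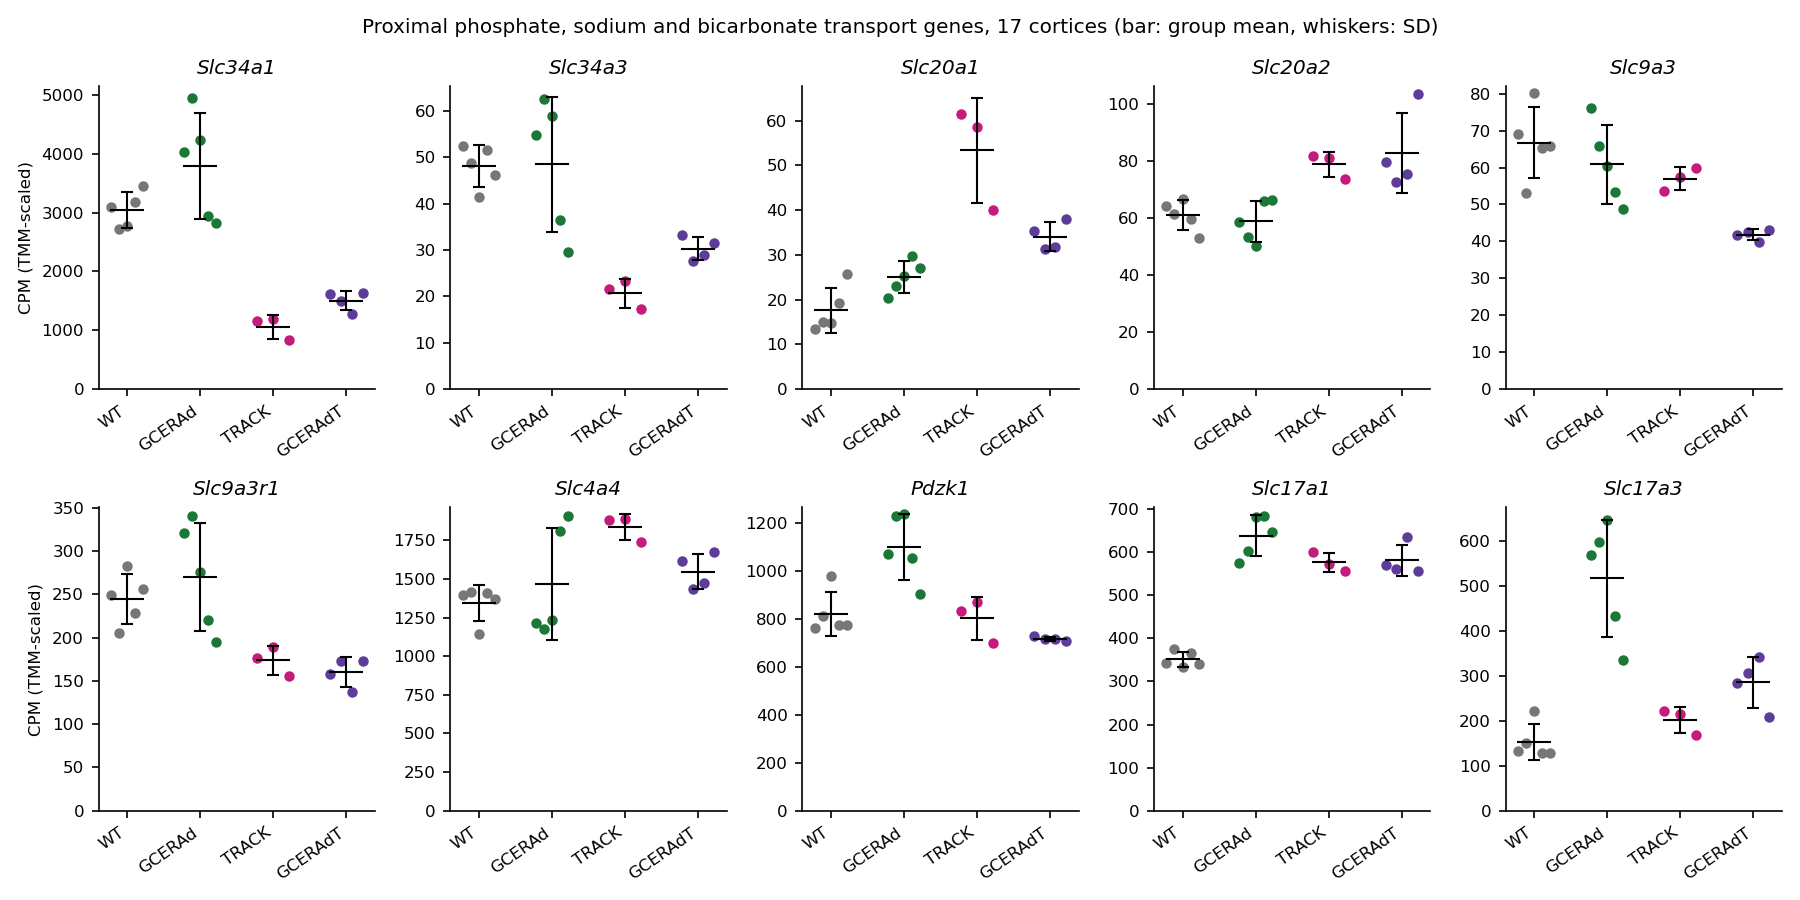
Level of each of the 10 genes in CPM (vertical axes from 0, one scale per gene) in the 17 cortices by group; points are libraries in replicate order, bars are group means and whiskers SD. Slc34a1 and Slc34a3 are lowest in TRACK and Slc20a1 is highest there, while GCERAd splits into 3 and 2 libraries for most genes.

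Slc34a1 encodes NaPi-IIa, the main sodium-phosphate carrier of the brush border. It was at 3099, 2723, 2777, 3181 and 3449 CPM in WT and at 1160.2, 1191 and 828 CPM in TRACK. The groups did not overlap and every TRACK library was far below the lowest WT library. The fitted change was −1.52 on the log2 scale (SE 0.14, adjusted p = 2.23e-05). Slc34a3 encodes NaPi-IIc, the second luminal carrier. It fell from 52.5, 48.9, 41.5, 51.5 and 46.3 CPM in WT to 21.7, 23.3 and 17.2 CPM in TRACK, again with no overlap (log2 fold change −1.21, SE 0.11, adjusted p = 3.05e-05).

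Slc20a1 and Slc20a2 encode PiT carriers, which most cells use to take up phosphate from blood or tissue fluid; the product of Slc20a2 is also found in the proximal brush border. Slc20a1 was at 13.5, 14.9, 14.7, 19.3 and 25.7 CPM in WT and at 61.5, 58.6 and 39.9 CPM in TRACK. The lowest TRACK library was above the highest WT library, and the fitted change was 1.60 (SE 0.21, adjusted p = 0.000255). Slc20a2 rose less, from 64.5, 61.6, 66.8, 59.8 and 53.1 CPM to 81.7, 81.2 and 73.9 CPM (log2 fold change 0.37, SE 0.08, adjusted p = 0.00539). These groups did not overlap either, but the adjusted p was 0.0801 with library kind as a covariate and 0.0608 with the replicate block.

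Set per length, as FPKM (CPM divided by the length of merged exons in kilobases), Slc34a1 led the sodium-phosphate carriers in every group. Its FPKM was 651 ± 64.2 (SD, n = 5) in WT, 812 ± 192 (n = 5) in GCERAd, 227 ± 43.1 (n = 3) in TRACK and 322 ± 34.9 (n = 4) in the libraries labelled GCERAdT. It made up 94.6 to 95.7% of the summed FPKM of Slc34a1, Slc34a3, Slc20a1 and Slc20a2 in WT, 95.2 to 96.4% in GCERAd, 87.0 to 88.4% in TRACK and 90.1 to 91.7% in GCERAdT. The ratio of Slc34a1 to Slc20a1 in FPKM was 215 ± 41.6 in WT, 187 ± 63.2 in GCERAd, 23.8 ± 1.17 in TRACK and 52.7 ± 3.88 in GCERAdT. The ranges of this ratio in WT and TRACK did not overlap.

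In WT the order of the 10 genes by mean FPKM was Slc34a1, Pdzk1 at 230.5 ± 25.6, Slc17a1 at 148 ± 7.48, Slc9a3r1 at 127 ± 15.2, Slc4a4 at 125 ± 10.8, Slc17a3 at 22.6 ± 5.94, Slc34a3 at 20.4 ± 1.88, Slc9a3 at 12.1 ± 1.74, Slc20a2 at 9.84 ± 0.843 and Slc20a1 at 3.16 ± 0.903 (SD, n = 5). Neighbours whose WT ranges overlapped were Slc17a1 with Slc9a3r1, Slc9a3r1 with Slc4a4, Slc17a3 with Slc34a3, and Slc9a3 with Slc20a2. In TRACK, Slc17a1 at 243 ± 9.48 FPKM, Slc34a1 and Pdzk1 at 226 ± 25.4 FPKM overlapped at the top. At the bottom Slc34a3, at 8.79 ± 1.33 FPKM, overlapped with Slc20a1 at 9.56 ± 2.10 FPKM.

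TRACK against WT called 7 of the 10 genes, 4 higher and 3 lower, against a background of 45.6% of the 11967 genes tested, 23% higher and 22.6% lower. Of the 10, 3 were called at 2-fold or more (Slc34a1, Slc34a3 and Slc20a1), against 10.2% of all. The groups did not overlap for 7 of the 10 genes, against 44.3% of all genes tested. The median log2 fold change was 0.17 over the 10 genes and −0.01 over all genes tested. Beside the phosphate carriers, Slc4a4, Slc17a1 and the scaffold Slc9a3r1 were called, and Slc9a3, Pdzk1 and Slc17a3 were not. With library kind as a covariate, or kind B alone with its 1 WT library, 4 of the 10 were called: Slc34a1, Slc34a3, Slc20a1 and Slc17a1.

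Slc9a3 encodes NHE3, the sodium-proton exchanger that carries most proximal sodium and bicarbonate recovery. Its levels were 69.0, 53.2, 80.1, 65.4 and 65.8 CPM in WT and 76.1, 65.7, 60.4, 53.4 and 48.9 CPM in GCERAd. TRACK had 53.7, 57.4 and 59.99 CPM and the libraries labelled GCERAdT had 41.7, 42.6, 39.9 and 43.1 CPM. GCERAdT lay below all other libraries, with no overlap with TRACK or with GCERAd. The log2 fold change was −0.44 against TRACK (SE 0.08, adjusted p = 0.0103) and −0.55 against GCERAd (SE 0.12, adjusted p = 0.00904). Neither comparison with WT called the gene, at −0.12 for GCERAd (SE 0.13, adjusted p = 0.536) and −0.22 for TRACK (SE 0.12, adjusted p = 0.136). The last was −0.29 with adjusted p = 0.0168 without WT 2.

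Slc4a4 encodes NBCe1, the sodium-bicarbonate cotransporter of the basolateral membrane. It was at 1395, 1418, 1142, 1412 and 1369 CPM in WT and at 1883, 1889 and 1737 CPM in TRACK. The groups did not overlap, and the fitted change was 0.45 (SE 0.08, adjusted p = 0.00194), with adjusted p = 0.0751 when library kind was a covariate. GCERAd had 1213, 1173, 1232, 1812 and 1909 CPM, the first 3 libraries within the WT range and the last 2 above every WT library. GCERAdT, at 1614, 1432, 1475 and 1673 CPM, lay below every TRACK library, but the change of −0.24 was not called (SE 0.09, adjusted p = 0.129).

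Slc9a3r1 encodes NHERF1 and Pdzk1 encodes NHERF3, the PDZ scaffolds that bind NaPi-IIa and NHE3 at the brush border. Slc9a3r1 was at 249, 206, 283, 228 and 256 CPM in WT and at 176, 189 and 156 CPM in TRACK, with no overlap (log2 fold change −0.49, SE 0.11, adjusted p = 0.0046). With library kind as a covariate this was −0.24 with adjusted p = 0.227, and with the replicate block −0.49 with adjusted p = 0.0503. Pdzk1 was at 761, 811, 979, 773 and 774 CPM in WT and at 835, 873 and 701 CPM in TRACK, and these groups overlapped (log2 fold change −0.03, SE 0.10, adjusted p = 0.845). The fall of Slc34a1 in TRACK thus stood beside a lower level of one scaffold, and no called change of the other.

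In GCERAd, Pdzk1 was at 1070.3, 1232, 1238, 1053 and 906 CPM, of which 4 libraries were above every WT library. Its change of 0.44 was called (SE 0.11, adjusted p = 0.0112), with adjusted p = 0.0501 when WT 1 and 2, and GCERAd 2 and 3, were each summed as possible repeats. Slc9a3r1 in GCERAd was at 321, 340.0, 275, 219.9 and 195 CPM and was not called (log2 fold change 0.16, SE 0.15, adjusted p = 0.471).

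Slc17a1 and Slc17a3 encode NPT1 and NPT4, carriers first named for phosphate that move urate and other organic anions across the luminal membrane. Slc17a3 was at 134, 150.1, 223, 129 and 129 CPM in WT and at 570.1, 599, 649, 434 and 335 CPM in GCERAd. Every GCERAd library was above the highest WT library, WT 3, and the change was 1.77 (SE 0.21, adjusted p = 0.000102). Slc17a1 was at 342, 374, 334, 366 and 339.8 CPM in WT and at 576, 604, 681, 685 and 648 CPM in GCERAd, again with no overlap (log2 fold change 0.88, SE 0.08, adjusted p = 9.93e-06). Slc17a1 spans chr13:23867750-23895730 and Slc17a3 chr13:23839434-23860716 (GRCm38), side by side on the plus strand. As paralogs they can share reads, and how reads with several matches were counted is not given in the sources used here.

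In TRACK, Slc17a1 was at 601, 572 and 557 CPM, above every WT library and inside the GCERAd range or just below it (log2 fold change against WT 0.72, SE 0.07, adjusted p = 2.63e-05). Slc17a3, at 223, 216 and 169 CPM, overlapped with WT and was not called (0.41, SE 0.18, adjusted p = 0.0909). That result turned on WT 3, without which it was 0.59 with adjusted p = 0.00248. The libraries labelled GCERAdT had 571, 562, 636 and 558 CPM of Slc17a1, and 284, 307, 342 and 209 CPM of Slc17a3.

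**Figure D2:**
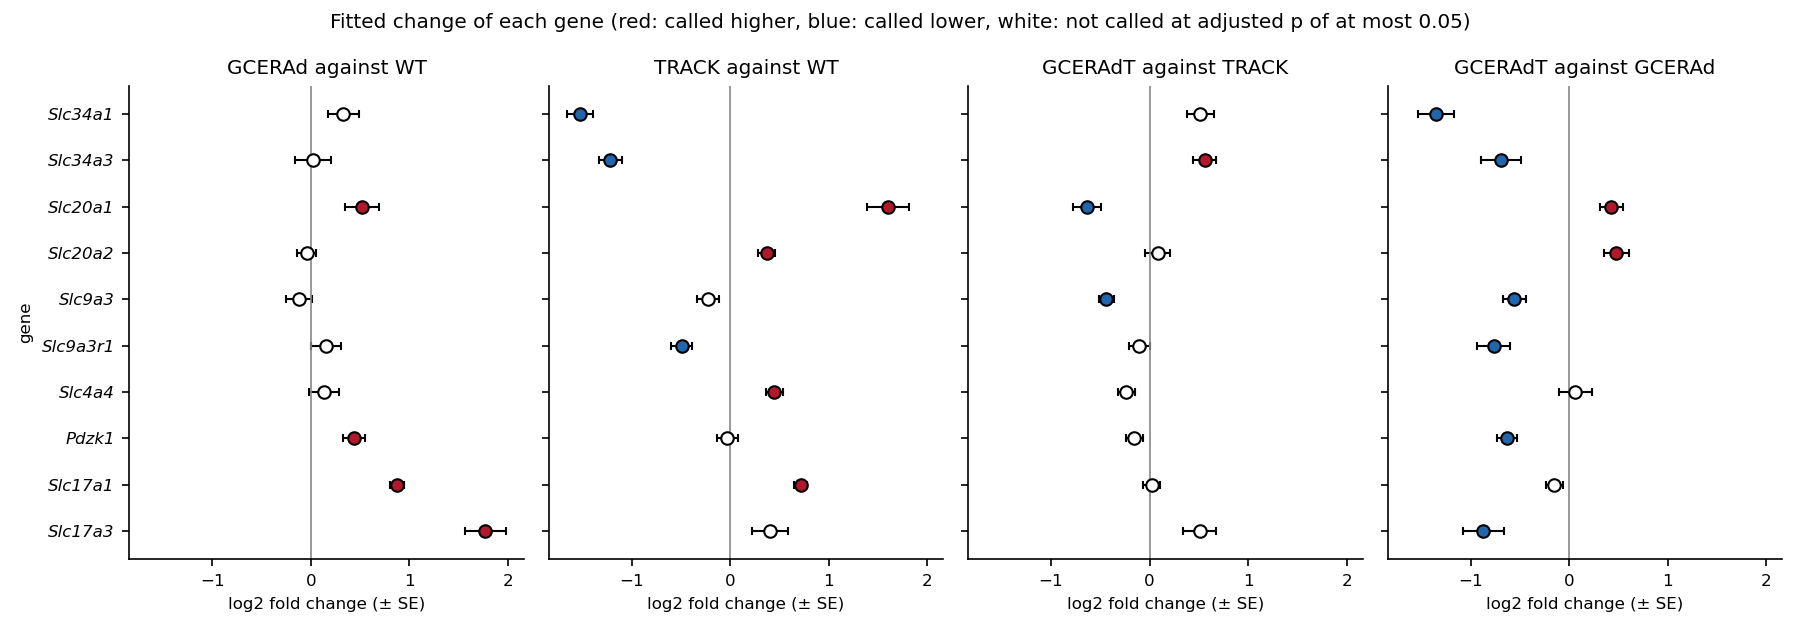
Fitted log2 fold change (horizontal axis, same scale in each panel) with SE for the 10 genes in 4 comparisons; red and blue mark genes called higher and lower at an adjusted p of at most 0.05 and white marks those not called. GCERAd against WT has 4 red points and no blue one, and TRACK against WT has Slc34a1 and Slc34a3 on the left and Slc20a1 on the right.

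GCERAd against WT called 4 of the 10 genes, all higher: Slc17a3, Slc17a1, Pdzk1 and Slc20a1. The background was 27.6% of 11581 genes tested, 14.1% higher and 13.5% lower. Slc17a3 alone was called at 2-fold or more, against 4.27% of all genes. Only Slc17a1 and Slc17a3 of the 10 did not overlap between the groups, against 20.2% of all genes tested. The median log2 fold change was 0.24 over the 10 genes and −0.0005 over all. Slc20a1, at 20.4, 23.1, 25.3, 29.7 and 27.0 CPM in GCERAd, was close to the threshold (log2 fold change 0.52, SE 0.17, adjusted p = 0.0432). It lost its call when any 1 library other than WT 5 or GCERAd 1 was left out, with adjusted p between 0.0546 and 0.0989. With the 1 WT and 3 GCERAd libraries of kind B alone, 0 of the 10 were called, and 98 genes were called in all. Slc17a3 was then 1.67 and Slc17a1 0.86 on the log2 scale.

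The GCERAd group is not uniform for these genes. Of the 10 genes, 6 were higher in each of GCERAd 1 to 3 than in GCERAd 4 and 5, 3 were lower, and Slc17a1 overlapped. The share of all genes that split in this way was not counted. Over all genes tested, deviations of GCERAd 1 to 3 from the group mean correlated with those of GCERAd 4 and 5 at −0.74 to −0.36. The split thus reaches beyond the 10 genes. Slc34a1 was at 4036, 4945 and 4235 CPM in GCERAd 1 to 3 and at 2944 and 2826 CPM in GCERAd 4 and 5. The first 3 exceed every WT library and the last 2 are within the WT range. Slc34a3 split in the same way, at 54.8, 62.7 and 59.0 CPM against 36.6 and 29.6 CPM, the last 2 below every WT library. Gatm, a proximal tubule marker that makes the creatine precursor, was at 789, 735 and 832 CPM against 219.8 and 211 CPM. Lrp2, the endocytic receptor megalin, was at 1916 to 2108 CPM against 1136 to 1147 CPM. Hnf4a and Ggt1, also proximal tubule markers, overlapped between the 2 parts of the group.

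Without GCERAd 4 and 5, a choice made after seeing the data, 6 of the 10 genes were called against WT. Over all genes 3592 were called in that fit, against 3198 with all 5 libraries. Slc34a1 was then called (log2 fold change 0.55, adjusted p = 0.00219, against 0.33, SE 0.16, adjusted p = 0.144 with all 5 libraries). Slc34a3 (0.31, adjusted p = 0.0242) and Slc9a3r1 (0.37, adjusted p = 0.0231) were called as well, while Slc20a1 was not (0.39, adjusted p = 0.149). Slc17a3 was at 2.00 and Slc17a1 at 0.84. With all 5 libraries Slc34a3 had a change of 0.02 (SE 0.19, adjusted p = 0.935). Slc20a2, at 58.8, 53.3, 50.2, 65.9 and 66.4 CPM in GCERAd, was not called in either fit, with −0.04 (SE 0.09, adjusted p = 0.783) over all 5 libraries. With all 5 libraries and library kind as a covariate, 5 of the 10 genes and 3462 genes in all were called. Slc34a1 (0.45, adjusted p = 0.0329) and Slc9a3r1 (0.31, adjusted p = 0.0479) were called in that fit, while Slc20a1 was not (0.47, adjusted p = 0.1).

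The comparison of GCERAdT with TRACK asks what Atf4 deletion adds when the transgene is present, and all libraries of both groups carry the Y-linked genes. It called 3 of the 10 genes: Slc34a3 higher, Slc20a1 and Slc9a3 lower. The background was 7.09% of 11928 genes tested, 2.81% higher and 4.28% lower, and the median log2 fold change was −0.04 over the 10 genes and 0.01 over all. The groups did not overlap for 5 of the 10, against 23.1% of all genes tested. With all 17 samples in 1 fit, or with kind B alone, 0 of the 10 were called, at 811 and 221 genes called in all, and DESeq2 called 6. Without TRACK 1 or without GCERAdT 1 the count was 1, at 396 and 533 genes called in all. At 2-fold or more 0 of the 10 were called, against 1.52% of all.

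Slc34a3 was at 33.3, 27.6, 28.9 and 31.6 CPM in the libraries labelled GCERAdT, all above TRACK and below WT (log2 fold change against TRACK 0.56, SE 0.12, adjusted p = 0.022). It missed the threshold without TRACK 1 (0.59, adjusted p = 0.0621) or GCERAdT 1 (0.51, adjusted p = 0.0552), and with the replicate block (0.55, adjusted p = 0.0533). Slc20a1, at 35.3, 31.2, 31.7 and 38.0 CPM, was below all TRACK libraries and above all WT libraries (−0.64, SE 0.14, adjusted p = 0.0292). It was called when TRACK 3 or GCERAdT 4 was left out and in no other such fit, where adjusted p lay between 0.0598 and 0.111. Slc34a1, at 1608, 1492, 1277 and 1636 CPM, was above every TRACK library, but its change of 0.51 was not called (SE 0.14, adjusted p = 0.0579). It was called by DESeq2 (adjusted p = 0.0031), with no filter on low values (0.0391) and with the replicate block (0.49, adjusted p = 0.0428).

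GCERAdT against GCERAd sets the transgene against its absence in mice labelled with the Atf4 deletion, again with Y-linked genes in every library. Of the 10 genes 6 were called lower and 2 higher, against a background of 19.2% of 11816 genes tested, 9.79% lower and 9.39% higher. Libraries with the same number deviated together here, and each such pair is also of 1 library kind. With the replicate block the same 8 genes were called while the calls over all genes went from 2266 to 3770. With library kind as a covariate 8 of the 10 and 3058 genes in all were called. Slc34a1 alone was called at 2-fold or more, against 3.88% of all. The groups did not overlap for 6 of the 10, against 19.3% of all, and the median log2 fold change was −0.59 over the 10 genes and −0.003 over all. Slc34a1 was 2.55-fold lower (log2 fold change −1.35, SE 0.18, adjusted p = 0.000728), with every library labelled GCERAdT below every GCERAd library. Slc9a3r1 at 158, 173, 137 and 172 CPM was 1.70-fold lower (−0.77, SE 0.16, adjusted p = 0.00938). Pdzk1 at 728, 715, 716 and 709 CPM was 1.55-fold lower (−0.63, SE 0.11, adjusted p = 0.00272). Slc17a3 was also lower (−0.87, SE 0.20, adjusted p = 0.0143), although GCERAdT 3 was above GCERAd 5.

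The other calls of that comparison were nearer to the threshold. Slc34a3 was lower (−0.69, SE 0.20, adjusted p = 0.0381), and the call was lost without any 1 library other than GCERAd 4 or 5, with adjusted p between 0.0688 and 0.106. Slc20a1 was higher (0.43, SE 0.12, adjusted p = 0.0266), which was lost without GCERAd 2, GCERAd 3, GCERAdT 1 or GCERAdT 4, with adjusted p between 0.0505 and 0.0726. Slc20a2, at 79.6, 72.7, 75.7 and 104 CPM, was higher (0.48, SE 0.13, adjusted p = 0.024), which was lost without GCERAd 2, GCERAd 3 or GCERAdT 4, with adjusted p from 0.0537 to 0.054. Without GCERAd 2, GCERAd 3 or GCERAdT 4, 5 of the 10 genes were called, at 1643, 1620 and 1945 genes called in all. Slc34a1, Slc9a3r1 and Pdzk1 kept their calls in each fit with 1 library left out. With the 3 GCERAd and 2 GCERAdT libraries of kind B alone, 0 of the 10 and 349 genes in all were called, and Slc34a1 was at −1.21 with adjusted p = 0.0531.

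Whether the Atf4 deletion moved a gene differently with and without the transgene was tested as (GCERAdT against TRACK) minus (GCERAd against WT), in all 17 libraries. Of the 10 genes 4 were called, all lower, against a background of 25.1% of 12208 genes tested, 12.3% higher and 12.8% lower. At 2-fold or more 2 of the 10 were called, against 7.8% of all. The median log2 difference was −0.34 over the 10 genes and 0.02 over all. Slc17a3 differed by −1.26 (SE 0.30, adjusted p = 0.00561) and Slc17a1 by −0.85 (SE 0.10, adjusted p = 2.6e-05), both raised in GCERAd against WT and not called in GCERAdT against TRACK. Slc20a1 differed by −1.15 (SE 0.26, adjusted p = 0.00385) and Pdzk1 by −0.59 (SE 0.15, adjusted p = 0.00952). The WT libraries enter this difference, and sex cannot be told apart from it.

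Of the 49 other genes listed for the same pathways, 39 were tested in GCERAd against WT, of which 6 were called higher and 6 lower, beside 27.6% of all genes tested called in either direction. In TRACK against WT 10 of 40 tested were called higher and 14 lower, beside 45.6% of all. The counts were 3 higher and 6 lower of 39 in GCERAdT against TRACK, beside 7.09% of all, and 3 higher and 9 lower of 39 in GCERAdT against GCERAd, beside 19.2% of all. In TRACK against WT the bicarbonate carriers had 1 higher and 3 lower of 4 tested, the scaffolds and regulators 3 higher and 2 lower of 9, and the carbonic anhydrases 0 higher and 2 lower of 4. In GCERAd against WT 3 of the 6 tested genes of the hormone axis were called higher, among them Pth1r, the parathyroid hormone receptor (log2 fold change 0.30, SE 0.09, adjusted p = 0.033), and Kl, the FGF23 coreceptor klotho (0.54, SE 0.18, adjusted p = 0.0428). Kl was at 775, 817 and 764 CPM in GCERAd 1 to 3 and at 459 and 435 CPM in GCERAd 4 and 5, the last 2 inside the WT range of 403 to 513 CPM. In TRACK against WT Kl was lower (−0.46, SE 0.08, adjusted p = 0.0016). Pth1r, Kl and Xpr1, a phosphate exporter, were named after their values were seen. Xpr1 was called higher in GCERAd against WT (0.40, SE 0.06, adjusted p = 0.000319).

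Slc34a2 encodes NaPi-IIb, the phosphate carrier of intestine and lung. It was at 7.73, 7.77, 7.88, 6.00 and 6.29 CPM in WT, at 4.33, 4.11, 3.90, 3.17 and 5.08 CPM in GCERAd and at 41.2, 57.3 and 29.5 CPM in TRACK. No 2 of these groups overlapped: TRACK was 5.98-fold above WT (log2 fold change 2.58, SE 0.19, adjusted p = 5.95e-06) and GCERAd 1.72-fold below (−0.78, SE 0.15, adjusted p = 0.00226). The libraries labelled GCERAdT, at 28.0, 27.3, 23.8 and 48.1 CPM, overlapped with TRACK and were 7.65-fold above GCERAd (2.94, SE 0.21, adjusted p = 9.25e-06). Of the 3 carriers of its family, Slc34a2 was thus higher in TRACK than in WT while Slc34a1 and Slc34a3 were lower. At 8.51 ± 2.78 FPKM (SD, n = 3) its level in TRACK was near that of Slc34a3 and far under that of Slc34a1.

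Slc17a2 is a further gene of the chromosome 13 family. It was at 10.8, 12.7, 21.01, 9.08 and 10.1 CPM in WT and at 0.217, 0.148, 0.5003, 0.349 and 0.379 CPM in GCERAd. It was thus nearly absent where Slc17a1 and Slc17a3 were raised (log2 fold change −5.31, SE 0.34, adjusted p = 1.23e-06). TRACK had 1.05, 1.60 and 2.96 CPM (−2.76, SE 0.38, adjusted p = 0.000347), below every WT library. In the other pairwise comparisons it was under the minimum level and was not tested.

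Genes of acid and sodium handling also fell and rose in TRACK. Slc9a8, a further sodium-proton exchanger of the brush border, was at 122, 107, 355, 112 and 128 CPM in WT and at 41.7, 47.6 and 40.0 CPM in TRACK (−1.93, SE 0.40, adjusted p = 0.00338). WT 3 was far above the other WT libraries, and all 5 were above TRACK. Car4, the membrane-bound carbonic anhydrase of the brush border, was at 77.2, 65.2, 101, 71.2 and 94.1 CPM in WT and at 27.6, 39.6 and 47.4 CPM in TRACK, with no overlap (−1.10, SE 0.19, adjusted p = 0.00133). Sgk1, a kinase that raises sodium transport, was at 91.1, 99.8, 77.9, 123 and 113 CPM in WT, 175, 254 and 237 CPM in TRACK, and 95.7, 93.1, 98.2 and 109 CPM in the libraries labelled GCERAdT. It was higher in TRACK than in WT (1.14, SE 0.16, adjusted p = 0.000322) and lower in GCERAdT than in TRACK (−1.15, SE 0.13, adjusted p = 0.00132).

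Slc26a1, the basolateral sulfate exchanger, was at 167, 180.3, 153, 95.1 and 103 CPM in GCERAd and at 74.2, 61.7, 51.9 and 60.1 CPM in GCERAdT (−1.19, SE 0.20, adjusted p = 0.00273), with no overlap. Car4 was lower there too (−1.47, SE 0.30, adjusted p = 0.0067). Slc26a6, the luminal anion exchanger that carries oxalate, was called higher in TRACK than in WT (1.15, SE 0.27, adjusted p = 0.00643). Its TRACK values of 16.5, 13.9 and 5.92 CPM overlapped with the WT values of 5.34, 4.82, 6.69, 5.55 and 4.86 CPM, since TRACK 3 was low.

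**Figure D3:**
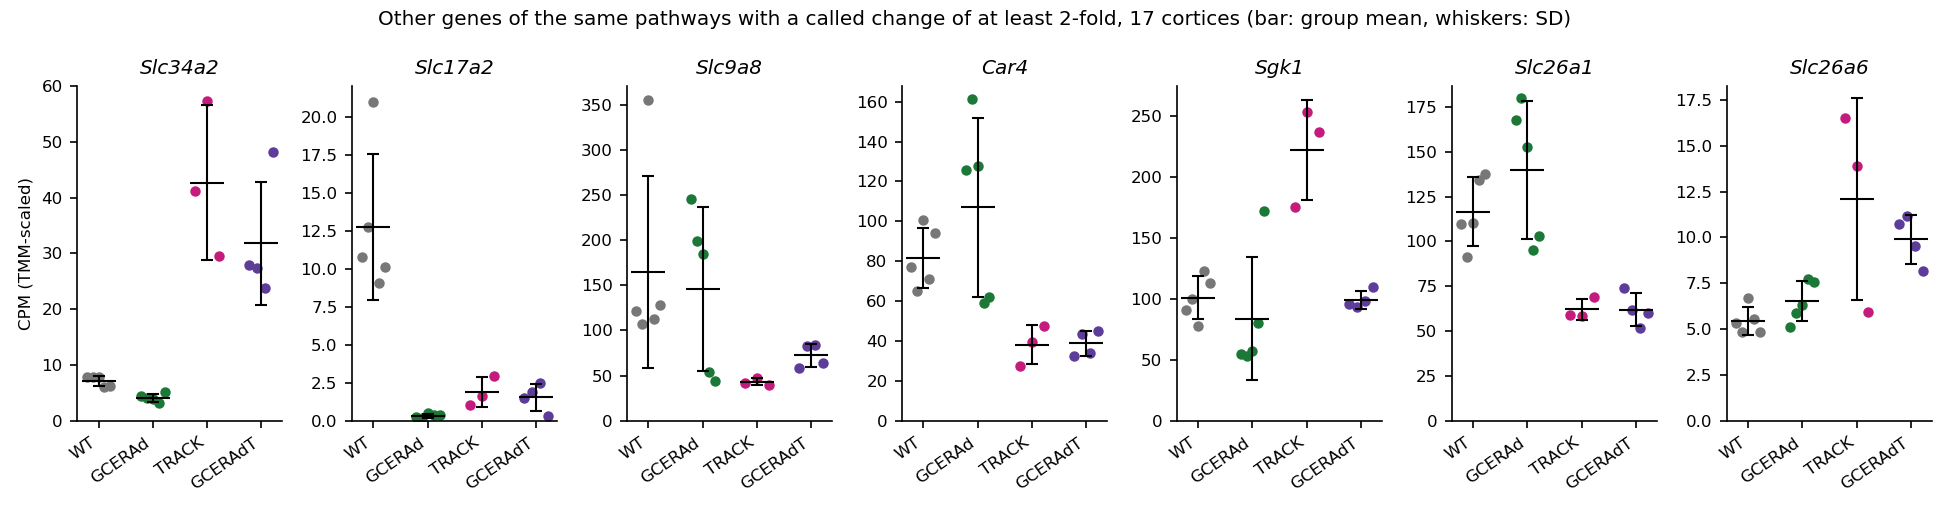
Level in CPM (vertical axes from 0, one scale per gene) of the 7 other pathway genes with a called change of at least 2-fold in a pairwise comparison, in 17 cortices by group; points are libraries, bars are means and whiskers SD. Slc34a2 is raised in TRACK and GCERAdT, and Slc17a2 is near 0 in all 5 GCERAd libraries.

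Markers of the cells in the cortex moved along with these groups. The summed CPM of 10 proximal tubule markers was 5529 to 6610 in WT, 5324 to 7181 in GCERAd, 4175 to 4463 in TRACK and 4354 to 5018 in GCERAdT. In TRACK against WT 6 of these 10 markers were called lower and 0 higher, where 22.6% of all genes tested were lower, with a median log2 fold change of −0.30, beside −1.52 for Slc34a1 and −1.21 for Slc34a3. In GCERAdT against GCERAd 4 were lower and 0 higher, where 9.79% of all were lower, with a median of −0.45. In GCERAd against WT 1 was higher and 0 lower, where 14.1% of all were higher, with a median of 0.08. The part of these markers in the results of the 10 genes was not tested.

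Endothelial markers summed to 368 to 422 CPM in WT and 599.6 to 703 CPM in TRACK, with 4 of 4 called higher, where 23% of all genes tested were higher. Fibroblast and mesangial markers summed to 92.9 to 110 CPM in WT, 119 to 173 CPM in GCERAd and 164 to 315 CPM in TRACK, with 5 of 5 called higher in GCERAd and 4 of 5 in TRACK. The share of all genes called higher in GCERAd was 14.1%. Thick ascending limb markers summed to 5429 to 8168 CPM in WT and 3542 to 4756 CPM in GCERAd, with 4 of 4 called lower in GCERAd, where 13.5% of all were lower. Principal cell markers were at 927 to 1051 CPM in WT, 387 to 634 CPM in GCERAd and 520.3 to 593 CPM in TRACK, with 5 of 5 called lower in GCERAd. Markers of injured tubules were at 8.50 to 12.5 CPM in WT, 11.7 to 19.97 CPM in GCERAd, 35.5 to 72.5 CPM in TRACK and 42.4 to 51.5 CPM in GCERAdT. Havcr1, the injury marker KIM1, was at 0.210, 0.188, 0.231, 0 and 0.483 CPM in WT and at 20.4, 12.3 and 21.9 CPM in TRACK. The part of these cells in the results was not tested.

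**Figure D4:**
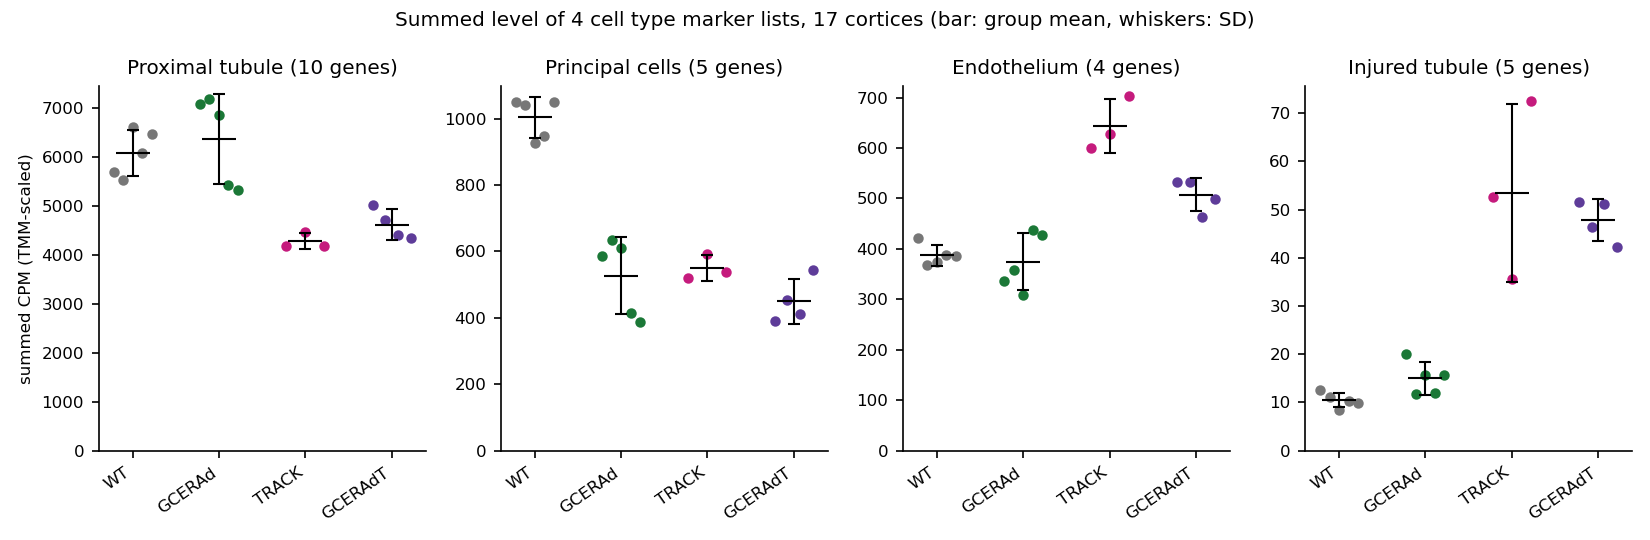
Summed CPM of 4 marker lists (vertical axes from 0, one scale per list) in the 17 cortices by group; points are libraries, bars are means and whiskers SD. Proximal tubule markers are lower in TRACK and GCERAdT than in WT, and injured tubule and endothelial markers are higher there.

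The genes whose log2 CPM followed a gene most closely over the 17 libraries were, for Slc34a1, Miox (Pearson r = 0.986), Fam151a (0.977) and Gys2 (0.972). For Slc9a3 they were Slc35e1 (0.912), Glis2 (0.910) and Dock8 (0.900), and for Slc4a4 they were Acat3 (0.946), Maob (0.937) and Noct (0.934). Each is the highest of 12208 genes compared, so the values are descriptions of likeness, with no test. Every r is over the same 17 libraries in 4 groups, so differences between the groups enter it.

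Where genes overlap on opposite strands, reads cannot be told apart unless strand was used in counting, which is not given in the sources used here. Smim19 overlaps Slc20a2 and reached 30.2 CPM in the highest library, and Gpr89 overlaps Pdzk1 and reached 29.9 CPM. The genes overlapping Slc34a1 and Slc20a1 stayed at or under 2.34 CPM in every library.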

How the data were processed

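RNA from 5 to 10 mg of kidney cortex was sequenced as messenger RNA in 17 samples (5 WT, 5 GCERAd, 3 TRACK, 4 GCERAdT). Per the study's methods and the submitters' processing notes, the authors used bcl2fastq 2.20 to make reads and Cutadapt to trim them, STAR for alignment (GRCm38) and HTSeq for counting. The deposited values are raw counts per gene without normalization, and groups come from the sample labels. Totals were 53688512 to 71364561 counts per library. The annotation release, strand setting and treatment of reads with several matches are not given in the sources used here.

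The test was edgeR's quasi-likelihood test (version 4.0.16, TMM scaling, in R 4.3.3), run over the genes whose mean FPKM reached 1 in either group. FPKM used merged exon lengths of GENCODE M21 (GRCm38), found for 48435 genes and missing for 360. Only the compared groups entered a pairwise fit, and the difference between contrasts used all 17 libraries. Genes with an adjusted p (Benjamini-Hochberg) up to 0.05 were called. CPM in the text is TMM-scaled over 17 libraries, with 0.5 added before the logarithm for likeness. A log2 fold change is the fitted one, and p-values measure the spread between libraries, which may be technical where 2 libraries come from 1 mouse. Libraries with the same replicate number deviated together in GCERAdT against GCERAd alone, where all 4 pairs had a correlation of deviations from the group mean over 0.1 (0.39 to 0.56). That pairing comes from the data and not from the labels, and each of the 4 pairs is also of 1 library kind. Pairs of 1 kind with different numbers deviated together as well. In kind A they were at 0.468 (GCERAd 1 with GCERAdT 2) and 0.469 (GCERAd 2 with GCERAdT 1). In kind B they ranged from 0.094 (GCERAd 3 with GCERAdT 4) to 0.384 (GCERAd 5 with GCERAdT 4). The parts of number and of kind were not tested. The fits were tested on simulated counts with known changes. Those counts were drawn independently, without library kinds, repeat libraries or a split within a group. They cannot show how the fits behave with such features.

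The 10 genes are named in every comparison. Of 49 other pathway genes, those called with a log2 fold change of at least 1 in a pairwise comparison are named, with counts of the rest. Slc34a1, Slc9a3 and Slc4a4 each have their 3 most alike genes. The 10 genes, the lists and the cell type markers were chosen with earlier results of these data known. Alternatives were DESeq2 1.42.0, RLE scaling, other minimums or none, the replicate number as a block, all samples in 1 fit, library kind, summed possible repeats and each library left out. Fits within a library kind, without GCERAd 4 and 5 and with GCERAdT 2 and 3 summed were chosen after seeing the data. Upstream sequences are RefSeq's.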

Additional observations from a re-analysis of the deposited data

Results flagged for a closer look

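In 3 of the 10 genes WT 3 lay far from the other 4 WT libraries, by the gap to its neighbour over the range of the group (Dixon's 95% limit). Slc4a4 was low there at 1142 CPM, while Pdzk1 at 979 CPM and Slc17a3 at 223 CPM were high. Slc17a1 was high in GCERAdT 3 at 636 CPM among 4 libraries. These are 4 of 30 groups examined, and chance flags about 1 in 20 groups. Since 3 of the 4 are the same library, WT 3, the groups are not independent of each other. The share of all genes flagged in WT 3 was not counted.

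The change with Atf4 deletion differed between mice with and without the transgene for 4 genes, by the test of the difference itself in edgeR over all 17 libraries. It was −1.15 for Slc20a1 (adjusted p = 0.00385), −0.59 for Pdzk1 (adjusted p = 0.00952), −0.85 for Slc17a1 (adjusted p = 2.6e-05) and −1.26 for Slc17a3 (adjusted p = 0.00561) on the log2 scale. WT libraries enter this difference, and Atf4 was not lower in the libraries labelled GCERAdT.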

How the results depend on the processing

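No alternative reversed a call, and of 990 refits of single genes 897 kept their side of the threshold, 72 lost and 21 gained a call. In GCERAd against WT the 4 called genes became 2 with possible repeats summed and 5 with library kind as a covariate. They became 5 with kind A alone, 6 without GCERAd 4 and 5, and 3 to 4 with 1 library left out. Over all genes 3183, 3592 and 2477 to 3246 were called in these fits. In TRACK against WT 7 became 4 with library kind as a covariate and 4 with kind B alone, and 7 to 8 with 1 library left out. In GCERAdT against TRACK 3 became 6 with DESeq2, 5 with no filter on low values, 0 with all 17 samples in 1 fit, 1 with library kind as a covariate and 0 with kind B alone, and 1 to 4 with 1 library left out. The count was 1 without TRACK 1 and 1 without GCERAdT 1. In GCERAdT against GCERAd 8 became 3 with GCERAdT 2 and 3 also summed and 0 with kind B alone, and 5 to 8 with 1 library left out. The difference between the contrasts stayed at 4 with each library left out and at 4 to 6 otherwise. Over all genes these fits called 2205 to 3303 and 2674 to 3432. The causes were not tested. With 1 library left out, TRACK against WT called 4101 to 6041 genes in all. With no filter on low values, GCERAdT against TRACK called 1234 genes in all. Over all genes, calls in GCERAd against WT went from 3198 to 2106 with the replicate block and to 98 with kind B alone. Those in TRACK against WT went from 5458 to 3431 with the block, 2776 with kind as a covariate and 1475 with kind B alone. Those in GCERAdT against TRACK went from 846 to 1562 with DESeq2, 462 with kind as a covariate, 498 with GCERAdT 2 and 3 summed, 221 with kind B alone and 379 to 1424 with 1 library left out. Those in GCERAdT against GCERAd went from 2266 to 3770 with the block, 1168 with the sums, 349 with kind B alone and 1427 to 2336 with 1 library left out.

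In GCERAdT against GCERAd, where libraries with the same number, also of 1 kind, deviated together, the replicate block changed no call of the 10 genes. In the other pairwise comparisons libraries with the same number had correlations of deviations of −0.61 to 0.08, and none over 0.1. In each of these comparisons 1 such pair was also of 1 kind. With the replicate block 4, 5, 3, 8 and 4 of the 10 genes were called in the 5 comparisons in the order above. Over all genes 2106, 3431, 715, 3770 and 3043 were called in these fits. Slc20a2 and Slc9a3r1 were lost in TRACK against WT, and Slc34a3 was lost and Slc34a1 gained in GCERAdT against TRACK.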
